A study of Homo sapiens with 9 samples.

Results

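MYOF encodes myoferlin, a member of the ferlin family, large membrane proteins with several C2 domains that act in vesicle fusion and in the repair of the plasma membrane. QKI-5 is the nuclear form of Quaking, an RNA-binding protein of the STAR family that regulates splicing and recognises ACTAAC, written here with T for U, together with a nearby TAAC. Proteins of this kind bind a pre-mRNA mostly in its introns, and their place before or after an exon is known to bear on whether that exon is kept. The MYOF peaks described here were the minus-strand peaks of the deposited list whose centre lay between 95066186 and 95242091 of chromosome 10 (hg19), the limits of the gene, which is transcribed from the minus strand. They numbered 18 of the 24037 peaks of the list. The gene was selected on a 39 nt exon that belongs to the exons listed as changed in inclusion after QKI-5 knockdown, and the members were chosen by position alone, so the presence of peaks in MYOF is given as a description, with no test.

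The peaks came from HITS-CLIP, in which live cells are irradiated with ultraviolet light so that proteins and the RNA in contact with them become linked, an antibody then isolates 1 protein, and the RNA fragments that stay attached are sequenced. The experiment used mesHMLE, a mesenchymal line made from HMLE (human mammary epithelial cells) by prolonged TGF-β1 treatment (2.5 ng/ml for at least 14 days) and then kept without further TGF-β1, although the labels give their cell type as breast cancer. They were irradiated with 600 mJ/cm2 and gave 7 libraries from immunoprecipitation with a QKI-5 antibody, 3 from the monomer and 4 from the dimer region of the gel, and 2 size-matched input libraries. All were technical replicates of a single condition, 1 of the 7 was made with SuperScriptIV and the others with AffinityScript, and the authors pooled the immunoprecipitation libraries before calling peaks against the input. No value below therefore has a spread between replicates, the list does not tell how deeply each library was sequenced, and intervals of shares are 95% Wilson intervals that cover counting error only.

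MYOF (ENSG00000138119.17_9) is 175906 nt long. Exons and introns were numbered from the 5′ end on its main transcript, MYOF-202 (ENST00000359263.9_7), which has 54 exons and 53 introns. The 39 nt exon is exon 17 (chr10:95152674-95152712) and begins 89.4 kb from the start of the gene. It is the third shortest exon of the transcript. Another full-length coding transcript, MYOF-201, has 53 exons and lacks this one. Its length is a multiple of 3, equal to 13 codons, and the reading frame through it holds 0 stop codons. The exon is shown with 60 nt on each side (chr10:95152614-95152772, minus strand), the exon in capitals, because the peaks are described relative to it. The intron before it ends in AG and the intron after it begins with GT.
Exon 17: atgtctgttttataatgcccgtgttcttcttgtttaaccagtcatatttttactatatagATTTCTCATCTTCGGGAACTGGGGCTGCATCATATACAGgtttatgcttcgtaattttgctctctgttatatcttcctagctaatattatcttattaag

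PCR primers for this exon are given in the study's methods, and their names call it exon 38. By the same names exon 16 is exon 37 and exon 18 is exon 39, so those numbers rise in the direction of transcription. The reverse primer for the included form fell wholly within the 39 nt exon. The forward primer for the skipped form joined 15 nt of exon 16, in lower case, to the first bases of exon 18, in capitals.
Skipped form: gtggggaagtggaagTAAACA
From their matches to the exon sequences, the included form would give a product of 70 nt and the skipped form one of 105 nt. No PCR value was used here.

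The 18 peaks were not spread along the gene (plot of heights along MYOF). Numbered 1 to 18 from the 5′ to the 3′ end, they lay in 1 exon and 4 introns. Exon 6 and intron 9 held 1 peak each, intron 17 held 6, intron 37 held 2 and intron 38 held 8. Introns 17, 37 and 38 thus held 16 of the 18 peaks. The other 49 introns held none, among them the 7 longest of the gene, introns 1, 3, 5, 19, 4, 2 and 7. The 5′-most peak began 72743 nt from the gene start, and the 3′-most ended 34.1 kb before the gene end. No peak lay on the plus strand within the gene. The members nearest to the limits of the rule were peak 1, of height 32, and peak 18, of height 50, both far inside them. Outside the limits, the nearest minus-strand peaks were 870 kb before the gene start, of height 25, and 752 kb past its end, of height 18, so that the choice of limits did not decide any member.

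**Figure D1:**
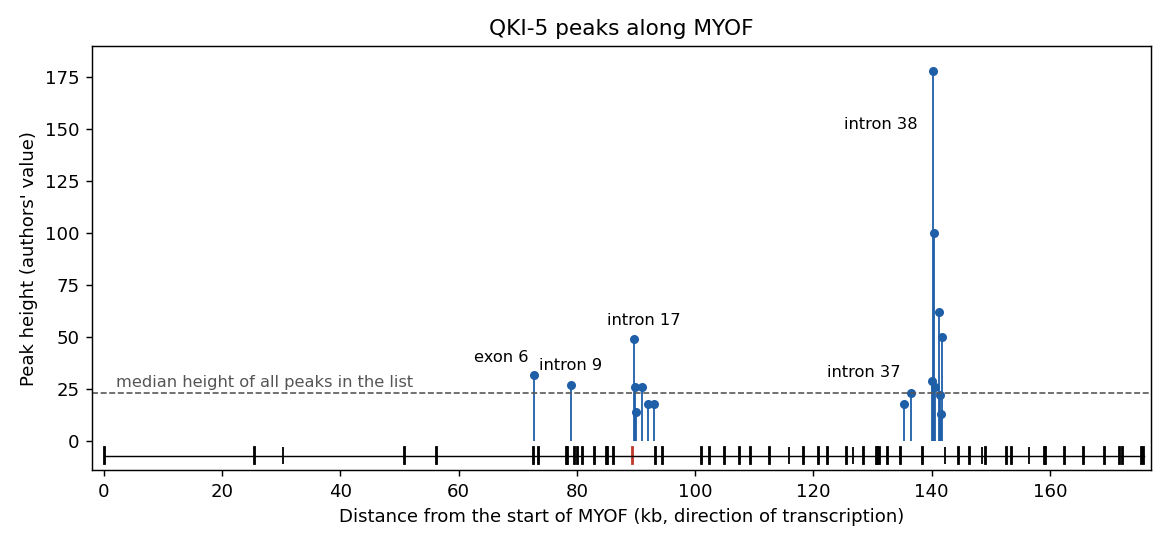
Height of each MYOF peak, a value given by the authors for the pooled libraries, against the distance of its summit from the gene start in kb. Black bars mark the 54 exons, the red bar marks the 39 nt exon, and the dashed line is the median height of the list, 23. The peaks stand in 2 groups, in intron 17 and in introns 37 and 38, with 2 single peaks before them.

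By their centres, 17 of the 18 peaks (94.4%) were intronic. In the whole list, 90.4% of the 19556 peaks on the strand of a main transcript had their centre in an intron, so the intronic share in MYOF was near that of the list. Peaks were found in 3.52% of the 180894 introns of main transcripts. Of all 180894, 0.388% held 6 or more, as intron 17 did, and 0.246% held 8 or more, as intron 38 did. That set also takes in introns of genes the cells may not transcribe. Of the 6363 introns with a peak, 701 held 6 or more and 445 held 8 or more. The order of introns 17 and 38 depended on how neighbouring peaks were counted. With peaks at most 100 nt apart merged throughout the list, a setting added after the data were seen, intron 38 fell from 8 to 3 regions, a number reached by 0.638% of introns. Intron 17 then held 5, a number reached by 0.25%. The counts did not follow intron length within MYOF (plot of peaks by intron length). Introns 17, 37 and 38 are 3762, 3684 and 3691 nt long and rank 8th to 10th by length. Among the 18011 introns of 3010 to 4702 nt in all genes, 0.355% held at least 6 peaks and 0.233% at least 8. Of these 18011, 700 held a peak, 64 at least 6 and 42 at least 8.

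**Figure D2:**
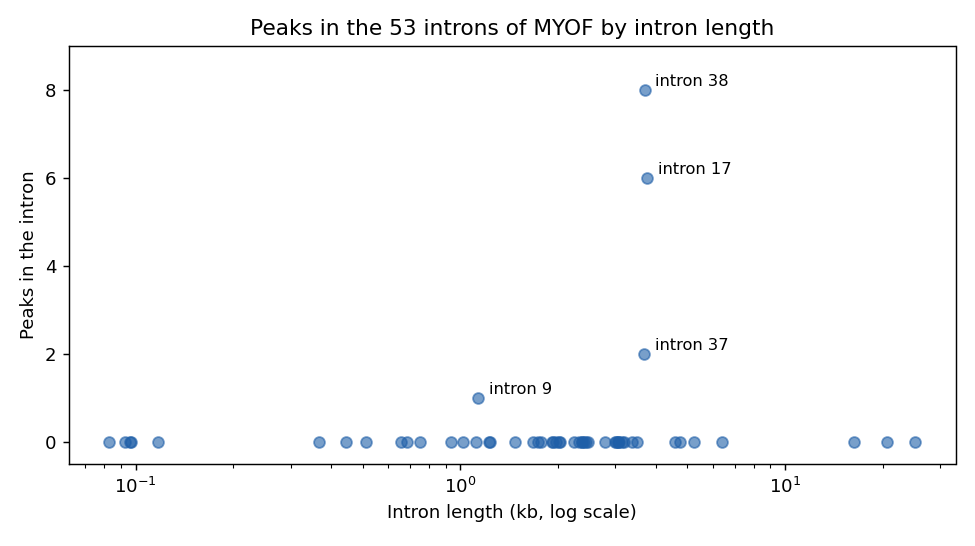
Number of peaks in each of the 53 introns of MYOF against the length of the intron in kb, on a log scale. Introns 38 and 17, with 8 and 6 peaks as listed, rank 9th and 8th by length, and the 7 longest introns are at 0.

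The intron downstream of the 39 nt exon (intron 17, chr10:95148912-95152673) held 6 peaks, and the intron upstream of it (intron 16, chr10:95152713-95155898) held 0, as did the exon itself (plot of the introns beside the 39 nt exon). Within intron 17 the peaks spanned 3556 nt and covered 12.8% of its length. Their heights, in order from the exon, were 49, 26, 14, 26, 18 and 18. The first of them was the tallest of the 6 and stood above 87.5% of the list, whereas 3 of the 6 were below the list's median of 23.

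The peak nearest to the 39 nt exon was peak 3 (chr10:95152435-95152556, minus strand), 122 nt wide, which began 117 nt after the exon and had its summit 146 nt from the exon's last base. Its sequence is shown as that of the tallest peak in this intron, with TAAC in capitals. It held 1 TAAC and no ACTAAC.
Peak 3: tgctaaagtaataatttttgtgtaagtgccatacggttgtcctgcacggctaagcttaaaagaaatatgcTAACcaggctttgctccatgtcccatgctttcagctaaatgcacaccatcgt
Of the 6363 introns with a peak, 12.8% had a peak centre in their first 250 nt, as intron 17 had. Peak 4 (chr10:95152215-95152280, height 26), with 1 TAAC, followed 393 nt from the exon, and peak 5 (chr10:95152122-95152211, height 14) followed 462 nt from it, without TAAC. The remaining 3 peaks of the intron were at least 1501 nt from the exon. On the upstream side, the nearest peak was in intron 9, at a distance of 10292 nt.

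Peak 6 (chr10:95151115-95151172, height 26) began 1501 nt after the exon. Its letters recur: its stretches of 20 nt occurred a median of 32.5 times on chromosome 10, counting both strands, and up to 6086 times. In 16 of the 17 MYOF peaks long enough for that count the median was 1, so peak 6 was the exception. The authors dropped alignments of low mapping quality before calling peaks, and the list does not give how the reads of peak 6 were placed. Peak 7 (chr10:95150058-95150123, height 18) began 2550 nt after the exon and held neither motif.

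Peak 8 (chr10:95149001-95149080, height 18), at the other end of the intron, was the only MYOF peak with ACTAAC. It began 3593 nt after the 39 nt exon and ended 89 nt before exon 18. The first base of the hexamer lay 1 nt from the summit. Of the introns with a peak, 8.97% had a peak centre in their last 250 nt, as intron 17 had. The last 200 nt of the intron (chr10:95148912-95149111, minus strand) are shown because they hold both the hexamer of peak 8 and a second run of such letters just beyond it, with ACTAAC and its variant ACTAAT in capitals.
Intron 17 end: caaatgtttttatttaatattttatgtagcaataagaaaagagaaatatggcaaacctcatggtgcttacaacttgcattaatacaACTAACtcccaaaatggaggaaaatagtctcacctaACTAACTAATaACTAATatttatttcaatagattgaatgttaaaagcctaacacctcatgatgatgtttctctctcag
This stretch held 2 ACTAAC and 2 ACTAAT, of which 1 ACTAAC was inside the peak. The other ACTAAC lay 11 nt beyond the 3′ edge of the peak and overlapped an ACTAAT.

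**Figure D3:**
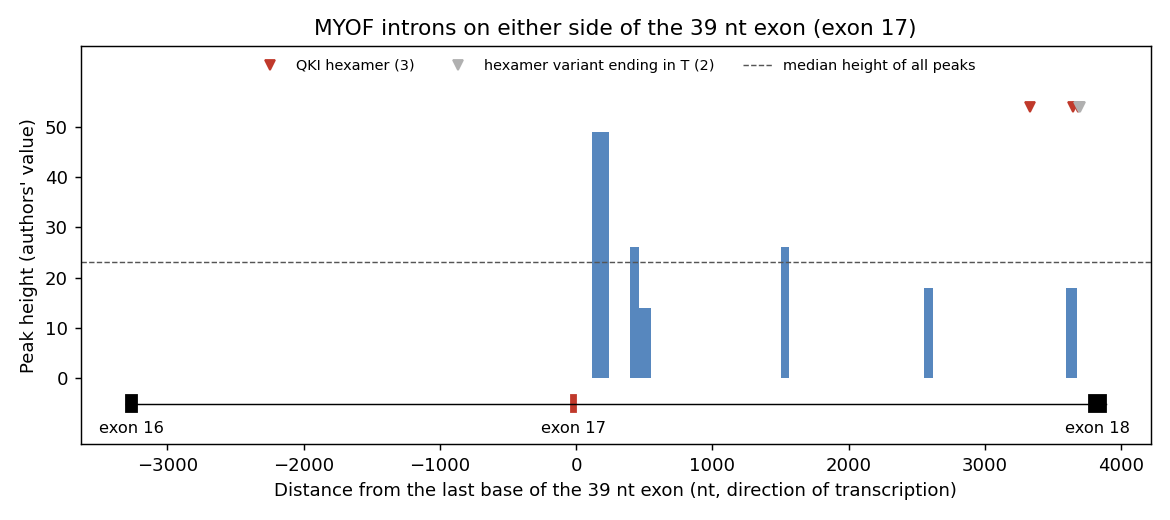
Peaks in introns 16 and 17 of MYOF, drawn to their width, against the distance from the last base of the 39 nt exon (red bar) in nt. Bar height is the authors' peak height, triangles mark ACTAAC (red) and ACTAAT (grey) on the transcribed strand, and the dashed line is the median of the list. All 6 peaks are after the exon, and the triangles gather at the far end of intron 17.

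Within 500 nt on each side of the 39 nt exon there was no ACTAAC or ACTAAT. The shorter TAAC occurred 5 times in the 500 nt before the exon, the nearest 22 nt away. That stretch held no peak, so none of the 5 could be in one. In the 500 nt after the exon TAAC occurred 4 times, the nearest 187 nt away, and 2 of the 4 were in peaks, in peaks 3 and 4. Those peaks and the start of peak 5 took up part of this stretch. The counts before and after the exon therefore do not compare how sites were used.

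Intron 38 (chr10:95099922-95103612) held the 3 tallest MYOF peaks and 65.7% of the summed height of all 18, against 20.7% for intron 17. Its 8 peaks covered 21.4% of the intron within a span of 1824 nt. From the 5′ end their heights were 29, 178, 100, 26, 62, 22, 13 and 50. The intron lies between exon 38, of 77 nt, and exon 39, which at 12 nt is the shortest exon of the gene. Both MYOF-201 and MYOF-202 contain exon 39. It is shown with 60 nt on each side (chr10:95099850-95099981, minus strand), the exon in capitals.
Exon 39: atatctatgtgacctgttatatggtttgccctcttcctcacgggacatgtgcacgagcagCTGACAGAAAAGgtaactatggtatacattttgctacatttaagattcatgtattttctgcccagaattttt

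The tallest was peak 12 (chr10:95101858-95101974, minus strand), 117 nt wide and 178 high, above 98.4% of the list. It began 1638 nt after exon 38 and held 1 TAAC, in capitals, 24 nt from its summit.
Peak 12: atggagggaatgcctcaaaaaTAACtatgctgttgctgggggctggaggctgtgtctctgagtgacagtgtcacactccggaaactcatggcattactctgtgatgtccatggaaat
Peak 13 (chr10:95101603-95101795), the widest of the 18 at 193 nt and the second tallest at 100, contained a whole annotated exon. This exon of 57 nt (chr10:95101670-95101726) belongs to MYOF-205, a transcript that starts at 95139744, past exon 17, and is annotated as a target of nonsense-mediated decay. It is equal to 19 codons, holds 0 in-frame stop codons and is bordered by AG and GT. The peak covered it with 69 nt before and 67 nt after, and the summit lay 45 nt past the exon's last base. The whole peak is shown with that exon in capitals.
Peak 13: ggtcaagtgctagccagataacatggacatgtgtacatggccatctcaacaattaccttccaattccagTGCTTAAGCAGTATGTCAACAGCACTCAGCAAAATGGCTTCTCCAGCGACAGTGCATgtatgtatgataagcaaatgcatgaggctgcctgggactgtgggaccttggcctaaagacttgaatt
Whether this exon is used in mesHMLE cells cannot be read from a list of peaks.

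The third tallest was peak 15 (chr10:95100696-95100856), 161 nt wide and 62 high, without TAAC or ACTAAC. Peaks 11, 14, 16 and 17 had heights of 29, 26, 22 and 13. Peak 18 (chr10:95100256-95100314, height 50) was the nearest to exon 39, ending 334 nt before it. Neighbouring peaks were often close: 5 of the 17 gaps between successive MYOF peaks were of at most 10 nt and the smallest was 1 nt. With gaps of at most 100 nt closed, the 18 peaks became 12, and the 8 of intron 38 became 3. The ACTAAC of intron 38 was outside its peaks, 696 nt from the nearest.

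**Figure D4:**
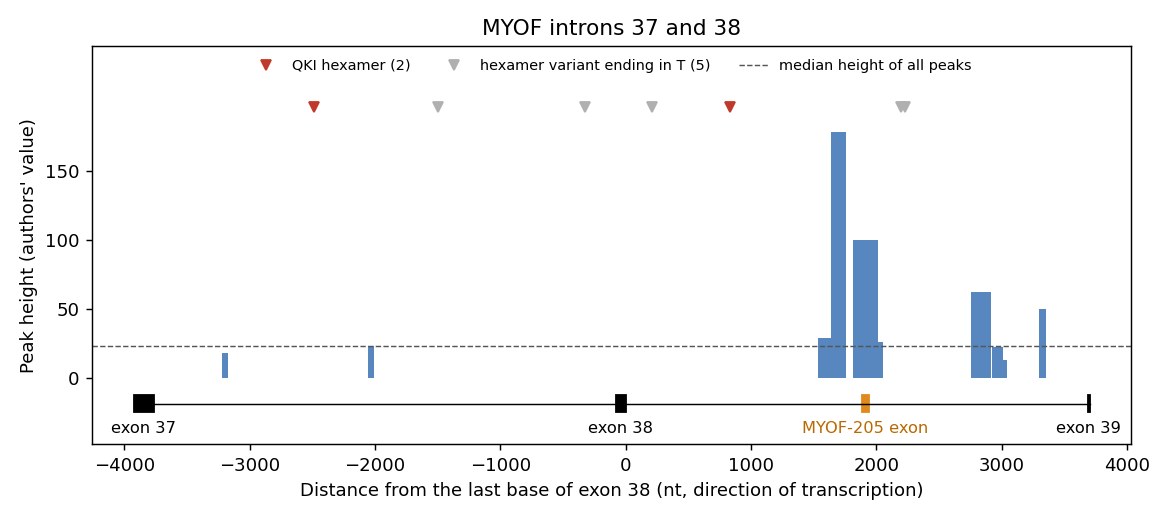
Peaks in introns 37 and 38 of MYOF, drawn to their width, against the distance from the last base of exon 38 in nt. The orange bar is the 57 nt exon of MYOF-205, triangles mark ACTAAC (red) and ACTAAT (grey), and the dashed line is the median height of the list. The 8 peaks of intron 38 begin 1533 nt or more after exon 38, the tallest lies just before the orange bar, and no triangle falls on a peak.

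Peaks 9 and 10, in intron 37, had heights of 18 and 23 and held neither motif. They were the richest of the 18 in G and C, up to 62.0% in peak 9, against a median of 47.85% over the 18 and 44.4% over the whole pre-mRNA. Peak 2 (chr10:95163005-95163056, height 27) lay in intron 9, 723 nt after exon 9. Peak 1 (chr10:95169330-95169348, height 32) was the narrowest, at 19 nt, and the only one to touch an exon of the main transcript. It covered the last 19 nt of exon 6, up to the 5′ splice site, and held neither motif.

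Across the 18 peaks the height ranged from 13 to 178 with a median of 26, against a median of 23 and quartiles of 18 and 33 over the list (plot of heights by exon and intron). In all, 12 of the 18 (66.7%) were at or above the list's median height, as were 53.4% of all peaks. Only 3, all in intron 38, exceeded the 90th percentile of the list, 55. Width ranged from 19 to 193 nt with a median of 66 nt, against 61 nt over the list.

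**Figure D5:**
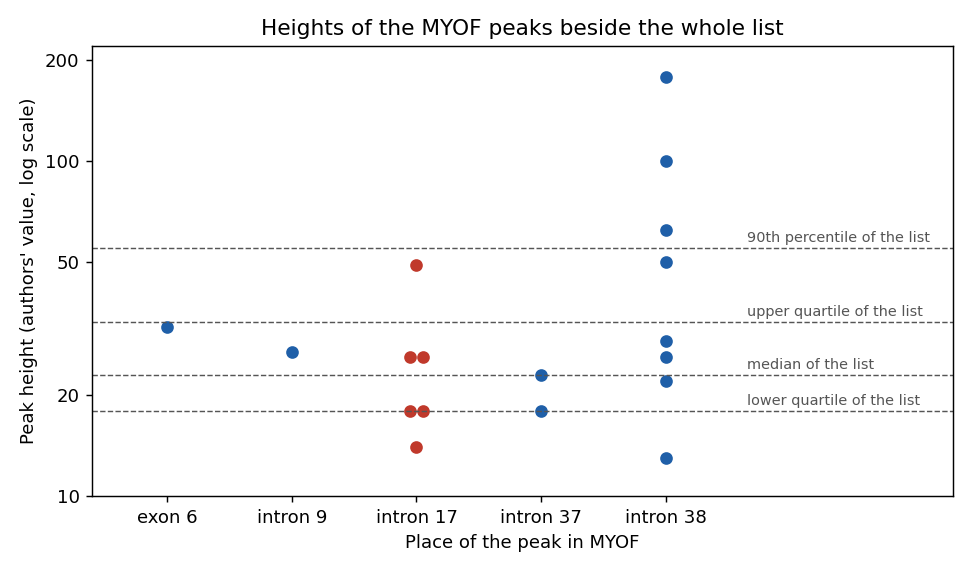
Height of each of the 18 MYOF peaks on a log scale, by the exon or intron that holds it, with intron 17 in red. Dashed lines are the lower quartile (18), median (23), upper quartile (33) and 90th percentile (55) of the 24037 peaks. The 3 peaks above the highest line are all in intron 38, and the tallest of intron 17, at 49, is just under it.

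ACTAAC was found in 1 of the 18 peaks (5.56%, interval 0.988% to 25.8%), on the peak's strand, against 10.1% of the 24019 nuclear peaks. TAAC, which ACTAAC contains, was found in 7 of 18 (38.9%, interval 20.3% to 61.4%), against 26.0%. Both intervals include the share of the whole list. They treat neighbouring peaks as independent, though many lie close together, and a difference from the list was not tested. Of the 7 peaks with TAAC, 3 were in intron 17 and 4 in intron 38, and each held 1 TAAC. No peak held ACTAAT.

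Read from the other side, the MYOF pre-mRNA held 23 ACTAAC, 22 in introns and 1 in exon 15, and 1 of the 23 was inside a peak (4.35%, interval 0.772% to 21.0%). Of the 14 introns with ACTAAC, 11 had no peak, and these 11 held 17 of the 22 intronic hexamers. Over all 53 introns of the transcript, with or without ACTAAC, 49 had no peak. Intron 3 had 4 of them and no peak, and intron 17 had 3. None of the 41 ACTAAT was in a peak. Of 439 TAAC, 7 were in peaks (1.59%, interval 0.774% to 3.25%), while the peaks covered 0.82% of the pre-mRNA. With so little of the pre-mRNA covered, most sites of any motif would stand outside the listed peaks. The intervals for ACTAAC and TAAC both include 0.82%, and a difference from the covered share was not tested. A match is only a match of letters.

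Measured by gene, MYOF shared rank 208 by number of peaks with 22 other genes, of 20175 protein-coding genes. At least 1 peak was found on the strand of 23.5% of those genes, and at least as many as in MYOF in 1.14%. Per length, MYOF had 10.2 peaks per 100 kb, against a median of 3.75 over the genes with a peak, and 975 genes had more. The list has no expression values, and a gene's peaks cannot be told apart from how much of its pre-mRNA the cells held.

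Of the other ferlins, DYSF (dysferlin, the membrane repair protein of muscle), OTOF (otoferlin, of the inner ear), FER1L5, FER1L6 and the pseudogene FER1L4 had 0 peaks on their strands. With only 5 genes, the interval of that share reaches 43.4%. A difference from the share of all protein-coding genes, which do not include FER1L4, was not tested. Whether the cells transcribe these ferlins is not given by the list. Among 36 genes of membrane repair, which take in DYSF, annexins, calpains, caveolae proteins and ESCRT-III subunits, 16 had a peak (44.4%, interval 29.5% to 60.4%). The share over all protein-coding genes was 23.5%, but that set also holds genes the cells may not transcribe. The 36 were chosen with earlier results of these data known, so the difference between the shares was not tested. BIN1, which encodes a membrane-bending BAR protein, had 32 peaks with heights up to 104. ANXA2, the calcium-dependent membrane binder annexin A2, had 18 peaks, as many as MYOF in a gene of 55.8 kb, with heights up to 305. PDCD6IP (ALIX, which recruits ESCRT-III) had 9 peaks, and ANXA6 had 7 and SNAP23 6. ANXA1, the calpain genes CAPN2 and CAPNS1, VPS4A and VPS4B were among the 20 genes with 0. As with MYOF, these counts are descriptions of a single pooled list.

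UBE4B and DCBLD2 were among the 3 genes whose peaks were placed most like those of MYOF. Likeness was Pearson's correlation of the share of peaks in 10 equal parts of the gene from start to end, over the 561 other protein-coding genes with at least 10 peaks. It was 0.775 for UBE4B (a ubiquitin chain assembly factor) and 0.765 for DCBLD2 (a transmembrane protein), against a median of -0.086 over the 561. UBE4B had 43.3% of its 30 peaks in the sixth part and DCBLD2 37.5% of its 24, where MYOF had 33.3%. In the eighth part, where MYOF again had 33.3%, DCBLD2 had 29.2% and UBE4B 10.0%. Other parts differed: DCBLD2 had 16.7% in the first, where MYOF had 0.0%, and UBE4B had 26.7% in the fifth, where MYOF had 11.1%. The points are 10 parts of 1 gene, and the genes were picked for the highest values, so the correlations describe position only.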

How the data were processed

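The authors trimmed the reads (cutadapt 1.3), mapped them to hg19 (TopHat2 2.0.10), merged duplicate reads with the help of molecular barcodes, dropped alignments whose mapping quality was low (SAMtools), pooled the libraries and, 1 strand at a time, called peaks with size-matched input as control (MACS2 2.1.1.20160309), per their methods and processing notes, which also name bedtools. The height in the deposited list is a signal of the pooled libraries, 1 whole number per peak, with no value per library, and its scale is not stated further. Positions were read with the first base counted as 1. The genome was GRCh37, with GENCODE release 44 placed on it for the gene models. Peaks were placed by their centre on the MANE Select transcript, and gene and intron counts used peaks on the same strand, leaving out 18 mitochondrial peaks. Motifs were searched on the peak's strand, overlapping matches included. Copies were counted for stretches of 20 nt taken every 5 nt.

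The peaks named singly were the 3 tallest, those with ACTAAC, those beside the 39 nt exon and the exonic one, with others added after their values were seen. The gene lists and members were chosen with earlier results of these data known. Of the 3 genes placed most like MYOF, 1 is not reported here. No test was made. Alternatives changed the placing, height minimum, merging and motif. Scripts were tested on simulated data. Python 3.11.15, numpy 2.4.6, pandas 2.3.3, scipy 1.17.1, pysam 0.24.0, matplotlib 3.10.9 and samtools 1.23.1 were used.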

Additional observations from a re-analysis of the deposited data

How the results depend on the processing

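Of 25 alternative settings for 10 results, 20 left the value within 1.5 times of that reported or, for a share, within its counting interval. With peaks at or above the list's median height only, intron 17 kept 3 of its 6 peaks, while intron 16 stayed at 0. Measured from its centre, the nearest peak was 179 nt from the 39 nt exon in place of 117 nt. The count of peaks with the motif was 7 with TAAC in place of ACTAAC, 0 with TACTAAC, and 0 for ACTAAC on the opposite strand. The 18 peaks became 12 under the height minimum and 12 when merged. Merging, added for intron 38 after the data were seen, took its 8 peaks to 3, below the 5 of intron 17. The rank of MYOF became 156 under the height minimum. No paired analysis was possible because the libraries were pooled before peaks were called and the results come from no test, and for the same reason no replicate was left out. The small number of peaks limits every share, and a region without a listed peak is one where none was called, which does not show that QKI-5 was absent.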
